A study of Bos taurus with 96 samples.

Results

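The messages of 10 genes that move carbohydrate and phosphate energy through skeletal muscle were followed over 96 bovine arrays, 36 of the longissimus dorsi muscle (LD) and 60 of dissected fat. The genes are *PYGM*, *PGM1*, *PFKM*, *ALDOA*, *GAPDH*, *PGAM2*, *ENO3*, *PKM*, *LDHA* and *CKM*. A probe was given to a gene where its accession in the array's annotation matched a bovine RefSeq record of that gene, or where the probe tables of the study named the gene, provided that the sources did not name another gene. All 10 genes were found, on 28 of the 34227 probes of the deposited table, out of 10616 genes that could be named. The probe with the highest mean level over all arrays stands for its gene, and the other probes are given by their range.

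Muscle stores glucose as glycogen and releases it as glucose 1-phosphate, which then runs through glycolysis to pyruvate and, where oxygen is short, to lactate. Several steps of this route are carried out in muscle by an isoform that other tissues use little or not at all, and fast fibres carry more of these enzymes than slow fibres. Creatine kinase works beside the route, passing phosphate between creatine and ATP so that ATP is held steady during contraction. Fat cells run the same chemistry at a lower rate, largely with the isoforms found in most tissues.

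The samples came from steers labelled with 26 months of age and 259 days in a feedlot, of 3 breed groups, Angus, Hereford and WagyuxAngus. The fat depots were intramuscular (IMF, dissected from the LD), subcutaneous (SC), intermuscular (Inter), kidney (Kid) and omental (Omen), each with 12 arrays, 4 per breed group, all labelled pasture. LD, sampled with its marbling fat in place, had 24 arrays labelled pasture, 8 per breed group, and 12 labelled supplement, 4 per breed group. The diet label refers to the period after weaning, and the labels give the same feedlot finish for every sample. Part of the LD samples came from an earlier kill in the study, and the labels do not say which, so whether those steers had that age and finish is not known, and kill cannot be told apart from the other differences among the LD arrays. Arrays of different depots shared steers that the labels do not name, so tests between depots treat related samples as unrelated.

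A level is the log2 processed signal of a probe minus the 75th percentile of its array, so that 0 is the level of a rather bright probe, and a difference of 1 is a doubling. The share of probes well above background had medians of 75.1% in LD, 76.9% in SC and 82.7% to 83.8% in the other depots, and no spot was saturated. An Omen array of an Angus steer (slide 10, position 4) had 5528 spots marked as outliers and an IMF array of a WagyuxAngus steer (slide 8, position 3) had 2647, against 2 to 95 on the other 94. The Omen array therefore lacks *PYGM*, *PGAM2* and 3 of the 15 myofibre genes used below. Without it 8 of the 10 genes passed in Omen against SC, where with all arrays 7 of the 10 genes and 45.7% of all probes passed. Each slide carried 4 arrays, and the 24 slides were scanned on 3 days. All IMF arrays were scanned on day 3, all Inter arrays on day 2 and 11 of the 12 SC arrays on day 1, so scan day and depot largely went together among the fats. LD was scanned on all 3 days, and the 10 genes remained higher in LD than in each depot with scan day as a block. The labelled tissues carried their markers. The summed level of 15 myofibre structural genes, such as the troponins and fast myosin heavy chains, was 12.23 to 12.95 in LD, 10.32 to 11.89 in IMF and 1.18 to 2.11 in SC. That of 9 adipocyte genes was 9.68 to 10.32 in SC, 7.93 to 9.57 in IMF and 6.97 to 8.05 in LD. The IMF samples thus carried muscle messages in every array. In such bulk samples, fewer muscle fibres and less message per fibre cannot be told apart.

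In muscle against SC fat, the question is which steps of the route are carried by muscle messages. All 10 genes were higher in LD than in SC, by 1.46 to 13.44 on the log2 scale with a median of 6.70, where the median of all probes was 0.05. In this comparison 82.9% of all probes passed an adjusted p of 0.05 in limma in one direction or the other, so passing the test sets no gene apart, and the sizes carry the description. On the brightest probes, muscle creatine kinase and the muscle forms of glycogen phosphorylase and phosphoglycerate mutase had differences above 12, and aldolase A and glyceraldehyde 3-phosphate dehydrogenase had the smallest.

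*PYGM* encodes muscle glycogen phosphorylase, which frees glucose 1-phosphate from glycogen. Its level was 5.74, 6.45 and 7.10 (lowest, median and highest) in LD and -7.04, -5.92 and -4.73 in SC, with only 5 of the 12 SC arrays well above background. The groups were far apart, with a difference of 12.39 ± 0.169 (SE; adjusted p = 6.36e-49, limma). The size of this difference is limited by the dim SC signal. *PGM1*, phosphoglucomutase, turns that product into glucose 6-phosphate and is used by most tissues. It ran from 7.65 through 8.18 to 8.48 in LD and from 3.02 through 3.44 to 3.65 in SC, well above background on every array. Its difference was 4.71 ± 0.0699 (adjusted p = 2.96e-47, limma), a 26.2-fold higher signal in muscle.

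*PFKM* is the muscle subunit of phosphofructokinase, the step at which the rate of glycolysis is set. Its levels were 6.65, 7.23 and 7.80 in LD and -0.87, -0.66 and -0.45 in SC, with a difference of 7.91 ± 0.0677 (adjusted p = 6.55e-58, limma). The SC arrays lay within a narrow band and none came near the LD arrays. *ALDOA* splits fructose 1,6-bisphosphate, and *GAPDH* oxidises the triose product. *ALDOA* ran from 9.05 to 9.74 in LD, median 9.35, and from 7.45 to 8.28 in SC, median 8.02. *GAPDH* ran from 8.49 to 9.28 in LD, median 8.83, and from 6.19 to 7.0 in SC, median 6.71. Both were bright in every tissue, and yet their LD and SC ranges did not overlap, as was so for 35.1% of all probes. The difference was 1.46 ± 0.0712 for *ALDOA* (adjusted p = 1.22e-24) and 2.16 ± 0.0738 for *GAPDH* (adjusted p = 3.07e-31, limma), 2.75-fold and 4.48-fold.

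*PGAM2* and *ENO3* encode the muscle forms of phosphoglycerate mutase and enolase. *PGAM2* was at 8.14, 8.51 and 9.07 in LD and -5.90, -4.91 and -3.91 in SC, where 11 of 12 arrays were well above background. Its difference was 13.44 ± 0.116 (adjusted p = 7.87e-58, limma), wider than that of *CKM* on the probes used here, though other probes of *CKM* gave up to 14.31. *ENO3* was at 8.41, 8.91 and 9.17 in LD and -0.31, 0.16 and 0.41 in SC, a difference of 8.73 ± 0.0794 (adjusted p = 7.79e-57). *PKM*, pyruvate kinase, yields pyruvate and ATP, and its gene also serves most other tissues through another splice form, which these probes were not shown to part. It was at 5.99, 6.82 and 7.46 in LD and 1.21, 1.96 and 2.38 in SC, with a difference of 4.90 ± 0.127 (adjusted p = 1.68e-36).

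*LDHA* encodes the lactate dehydrogenase subunit that favours the making of lactate. Its level was 7.46, 8.15 and 8.70 in LD and 1.65, 2.53 and 3.57 in SC, a difference of 5.49 ± 0.12 (adjusted p = 1.06e-39, limma) or 44.9-fold. *CKM*, muscle creatine kinase, was at 8.34, 8.73 and 9.20 in LD and -4.66, -4.28 and -3.34 in SC, a difference of 12.92 ± 0.10 (adjusted p = 1.06e-59). The LD arrays varied by about 1 log2 unit for either gene, small beside the gap to fat.

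The other visceral and intermuscular depots gave much the same contrast with muscle. All 10 genes were higher in LD than in Inter (1.95 to 11.31, median 6.71), in Kid (1.87 to 12.19, median 7.01) and in Omen (2.23 to 13.20, median 7.07), with LD above every array of these depots for all 10. The ranges of LD and the depot were apart for 33.1% of all probes against Inter, 27.5% against Kid and 32.2% against Omen. The smallest difference was that of *ALDOA* in each. Of all probes, 83.8% passed the test against Inter, 80.2% against Kid and 82.1% against Omen. The 28 probes behaved alike in sign: all 28 were higher in LD than in each of the 5 depots. Sizes still varied among the probes of a gene, from 6.85 to 8.50 over 6 probes of *PFKM*, from 4.84 to 8.22 over 4 of *PKM*, from 7.26 to 10.56 over 4 of *ENO3*, from 11.87 to 12.39 over both of *PYGM*, from 4.71 to 5.19 over 3 of *PGM1*, from 11.89 to 13.44 over both of *PGAM2*, from 12.92 to 14.31 over 3 of *CKM* and from 1.46 to 3.71 over both of *ALDOA* in LD against SC. For *GAPDH*, 7 further probes that the study's tables gave to another gene were left out, and these differed by 3.39 to 4.80, more than the probe used here. For *LDHA*, 2 probes left out for the same reason differed by 5.24 to 5.57.

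IMF came between muscle and the other fats for all 10 genes. LD exceeded IMF by 0.71 to 2.23 with a median of 1.78 (all probes 0.04), and 75.3% of all probes passed the test in that comparison. *PYGM* was at 2.53, 4.20 and 5.48 in IMF, 2.23 ± 0.194 below LD (adjusted p = 1.2e-14, limma). *CKM* was at 5.51, 7.15 and 8.14, 1.69 ± 0.15 below LD (adjusted p = 3.6e-14). The LD and IMF ranges met for *PFKM* and *GAPDH* and were apart for the other 8 genes, against 15.5% of all probes. For *ALDOA* and *GAPDH*, 0.71 ± 0.0702 and 0.80 ± 0.0841 higher in LD, the sign rested on the scaling, since quantile normalization gave -0.04 for each and the unscaled table gave -0.09 for *ALDOA*.

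IMF exceeded SC for all 10 genes as well, in a comparison in which 64.2% of all probes passed. *PGAM2* (11.40 ± 0.276), *CKM* (11.23 ± 0.257) and *PYGM* (10.16 ± 0.337) had the largest differences, and *ALDOA* (0.75 ± 0.104, adjusted p = 1.04e-06, limma) and *GAPDH* (1.36 ± 0.12) the smallest. The 12 IMF arrays were spread far more widely than the SC arrays, as for *LDHA*, which ran from 4.62 through 6.06 to 7.06. IMF and SC overlapped for *ALDOA* alone among the 10, and 14.9% of all probes had ranges apart. Only 5 of the 12 SC arrays were well above background for *PYGM*, so the size of its difference is limited by the dim SC signal. The summed myofibre level of IMF moved with these results, and its relation to the 10 genes among the IMF arrays is described next.

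Within IMF, the 10 genes moved with the myofibre structural genes from array to array, *ALDOA* least firmly. The measure was the median level of the 15 structural genes, which ran from 6.24 through 7.51 to 8.17 over the 12 arrays. Pearson's r was 0.98 for *LDHA* (rho 0.99, permutation adjusted p = 5e-05), 0.97 for *PYGM* (rho 0.92) and 0.97 for *PKM* (rho 0.92), both with a permutation adjusted p = 6e-05. For *CKM* it was 0.96 (rho 0.95, permutation adjusted p = 5e-05), for *PGAM2* 0.95 (rho 0.90, permutation adjusted p = 6e-05), and for *PFKM* and *ENO3* 0.94 (rho 0.87 and 0.91, permutation adjusted p = 8.57e-05 for each). The weakest were *PGM1* and *GAPDH* at 0.92 (rho 0.90 and 0.79, permutation adjusted p = 0.000144 and 0.0001) and *ALDOA* at 0.84 (rho 0.73, permutation adjusted p = 0.00106). These were 10 two-sided relations, adjusted together. Of the 32484 probes with a value on every IMF array, 9.34% had an r at or above that of *ALDOA*, and the median r of these probes was -0.02. Their median absolute r was 0.53, so relations of either sign were common over all probes. Without the 2 arrays farthest from the median of the myofibre measure, r was 0.85 or more for 9 genes and 0.69 for *ALDOA*. Those 2 arrays had the lowest measures, and the array with 2647 outlier spots (slide 8, position 3) stayed in. It had the highest measure (8.17) with *ALDOA* at 8.55, whereas the array next below (8.05) had *ALDOA* at 8.98. No r without that array alone is given. A unit of the myofibre measure went with 0.94 to 1.30 units of the other 8 genes, but with 0.28 units of *ALDOA* and 0.44 of *GAPDH*. With quantile normalization these fell to 0.06 and 0.26, and *ALDOA* no longer passed (r 0.37, permutation adjusted p = 0.248), while the mean over the *ALDOA* probes gave 0.55. All 12 arrays were scanned on day 3, on 3 slides of 4 arrays, too few for a value within a slide.

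**Figure D1:**
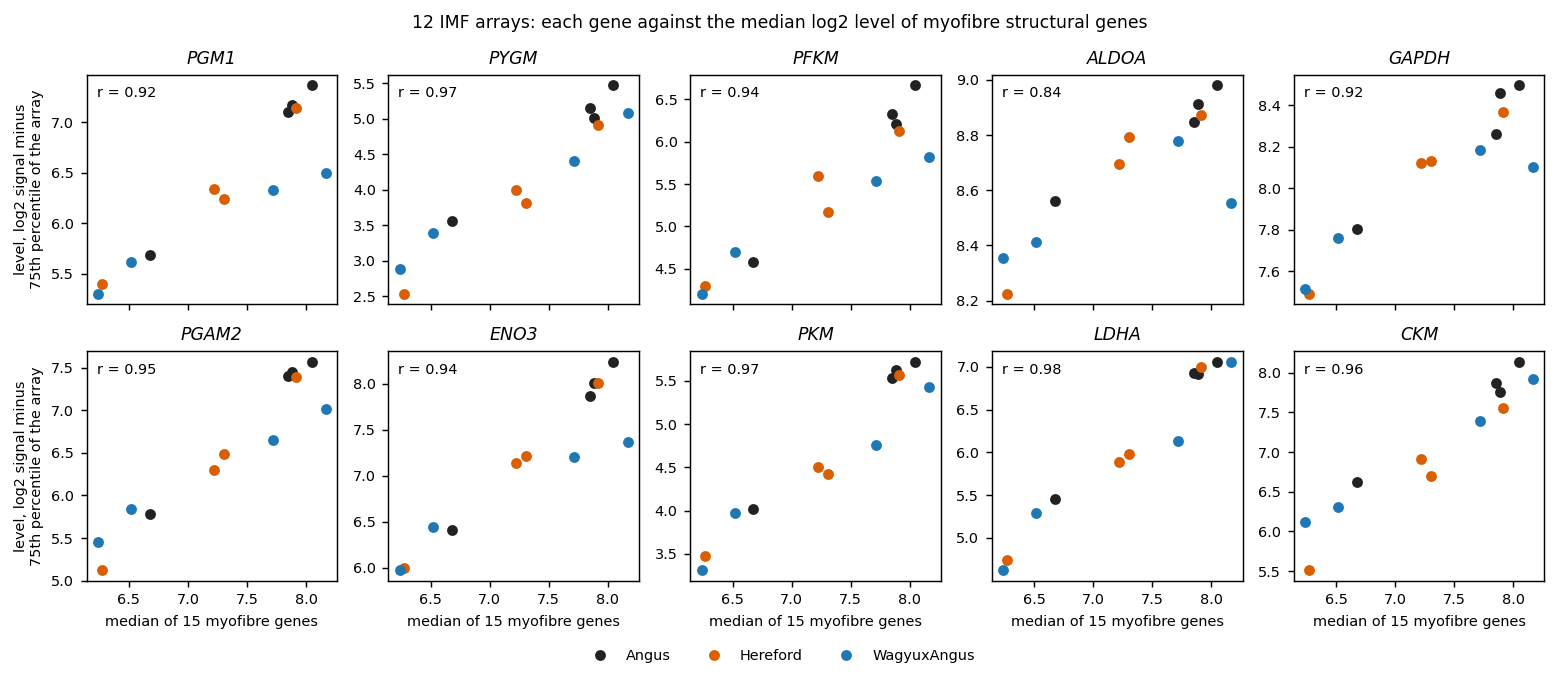
Level of each of the 10 genes in the 12 IMF arrays (log2 scale, vertical) against the median level of 15 myofibre structural genes in the same array (horizontal), coloured by breed group. The points lay along a line for all 10 genes, with r from 0.84 for *ALDOA* to 0.98 for *LDHA*.

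On a linear scale, the place of each IMF array was taken as the share of the way from the mean of SC to the mean of the pasture LD arrays. These places varied widely among the 12 arrays. *CKM* had a median of 34.5% (10.9% to 67.7%), *ENO3* 33.2% (13.9% to 68.0%), *PFKM* 31.5% (12% to 68.3%) and *PGM1* 26.9% (11.1% to 59.5%). *PGAM2* stood at 25.6% (9.34% to 51.3%), *LDHA* at 23.1% (6.93% to 48.8%), *PYGM* at 22.1% (6.87% to 53.0%) and *PKM* at 20.5% (5.92% to 47.4%). The widely used genes *ALDOA* and *GAPDH* were higher on the probes used, at 45.1% and 50.5%, but their other probes gave lower places. The other probe of *ALDOA* had a median of 27.2%, and the 7 probes of *GAPDH* left out had medians of 24.2% to 35.8%. The medians of the 15 structural genes ran from 20.6% to 68.5% with a median of 41.6%, and the medians of the 10 genes had a median of 29.2%. All but that of *PKM*, just below, lay within the range of the structural genes.

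Isoforms of the same enzymes parted between the tissues. Of 14 counterpart isoforms listed, 13 were measured, and 8 of these were lower in LD than in SC on their brightest probe. The probes of *CKB* and *ALDOC* were split, and the count was 7 without *CKB*, 9 with *ALDOC* turned, and 8 with *ALDOC* turned and *CKB* left out. The subunits of phosphofructokinase found in liver and platelets were lower, *PFKL* by 2.55 ± 0.09 and *PFKP* by 2.66 ± 0.11, as against the higher *PFKM*. Among the phosphorylases the liver form *PYGL* fell by 2.54 ± 0.09 and the brain form *PYGB* fell by 1.75 ± 0.06. The non-muscle mutase *PGAM1* fell by 2.60 ± 0.13 on its brightest probe, with 1 of its 3 probes at -0.02 and short of the test. The common enolase *ENO1* fell by 1.69 ± 0.10, and *LDHB*, whose subunit favours the use of lactate, fell by 2.40 ± 0.15. *LDHB* had a median of 4.95 in LD and 7.43 in SC, so that the pair of lactate dehydrogenase subunits moved in opposite directions.

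The brain creatine kinase *CKB* fell by 5.77 ± 0.19 on its brightest probe, from a median of 6.10 in SC to 0.22 in LD. Its 6 probes did not share a sign, however, with 4 higher and 2 lower in LD (-5.77 to 4.34), and the direction for *CKB* is uncertain. *CKMT2*, the creatine kinase of muscle mitochondria, was the counterpart that followed *CKM*, 12.81 ± 0.10 higher in LD (35 LD arrays with a value). Higher in LD too were *ALDOC* (4.05 ± 0.12), the neuronal enolase *ENO2* (1.56 ± 0.13) and the liver and red cell pyruvate kinase *PKLR* (0.46 ± 0.15). Of the 3 probes of *ALDOC*, 1 was higher and 2 were lower (-3.09 to 4.05). In IMF against SC, 5 counterparts were higher, 7 were lower, and *PYGB* did not pass the test (-0.26). This count rests on the brightest probes, and those of *CKB* were split there, 3 higher and 2 lower of 6, and those of *ALDOC*, 1 higher and 1 lower of 3. With *CKB* turned, 6 were higher and 6 lower, and with *ALDOC* turned, 4 were higher and 8 lower.

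**Figure D2:**
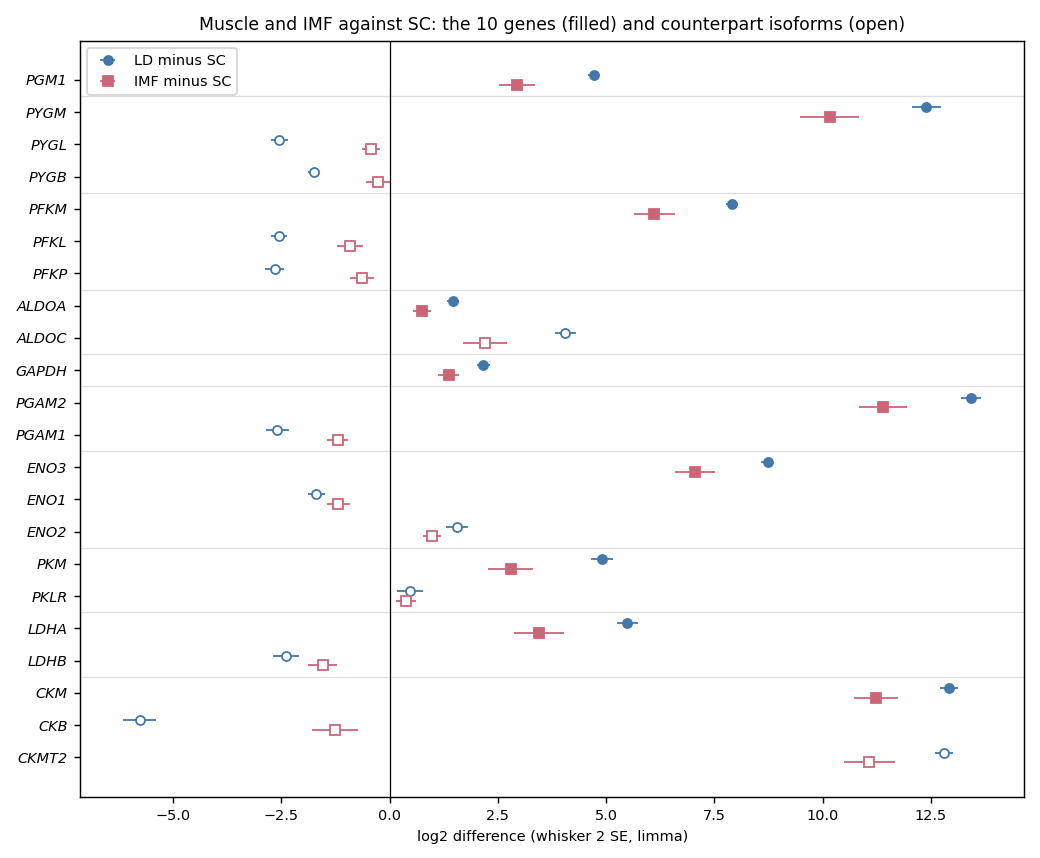
Log2 difference of LD from SC (circles) and of IMF from SC (squares) for the 10 genes (filled) and 12 of their counterpart isoforms (open), grouped by enzyme, with whiskers of 2 SE. All filled symbols lay to the right of 0, whereas *PYGL*, *PYGB*, *PFKL*, *PFKP*, *PGAM1*, *ENO1*, *LDHB* and the brightest probe of *CKB* lay to its left.

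Of the rest of the glycolytic route, 25 of 26 listed genes were measured, the counterparts included, and 15 were higher and 10 lower in LD than in SC on their brightest probes (14 and 11 with *ALDOC* turned, whose probes were split). The steps without a muscle isoform were higher, *GPI* by 2.07, *TPI1* by 2.89 and *PGK1* by 3.04. The hexokinases *HK1* and *HK3* were lower, with means of 1.41 and -4.37 in LD and 3.40 and -0.63 in SC. The hexokinase *HK2* was the listed gene not measured. The lactate exporter *SLC16A3* (5.79) and the regulatory enzyme *PFKFB4* (4.94) had the largest differences of the list on these probes. Around glycogen, 19 of 23 genes were measured, 12 higher and 7 lower, led by *PPP1R3A*, which targets protein phosphatase to glycogen in muscle, and *EPM2A* (5.79), the phosphatase laforin. *PPP1R3A* was not well above background on any SC array, and with the SC arrays set to the dimmest probe well above background it was at least 11.28 higher in LD (log2 scale, measured means 5.10 and -7.08). In the phosphagen system, 11 of 13 genes were measured, 7 higher, 3 lower and *GATM*, which starts creatine synthesis, not called. The lower genes include *CKB* on its brightest probe, though 4 of its 6 probes were higher and 2 lower, so this count is uncertain. *CKMT2*, *AMPD1* (8.97), the AMP deaminase of muscle, and *AK1* (5.80), adenylate kinase, led that list.

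Among the depots other than IMF, the 10 genes differed little from SC beside the contrast with muscle. In Inter against SC, 48.8% of all probes passed the test and 6 of the 10 genes did, 3 in each direction. *PGAM2* (2.13 ± 0.756, adjusted p = 0.023, limma), *CKM* (2.09 ± 0.779, adjusted p = 0.0295) and *PGM1* (0.29, adjusted p = 0.018) were higher in Inter. The other probe of *PGAM2* was at 0.96 and did not pass. *PKM* (fell by 0.58 ± 0.172, adjusted p = 0.00767), *ALDOA* (fell by 0.49) and *GAPDH* (fell by 0.54) were lower. The 4 probes of *PKM* ran from -0.58 to 0.54 and 1 of them passed. In the unscaled table, where the median of all probes was 0.98, the signs of these 3 genes turned (0.45, 0.49 and 0.45). The ranges of Inter and SC overlapped for all 10 genes, and were apart for 3.75% of all probes. With slide as a random block 3 of the 10 genes passed, and fewer passed with the mean over the probes of each gene.

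In Kid against SC, 41.7% of all probes and 5 of the 10 genes passed. *PGAM2* was higher (1.25, adjusted p = 0.0363, limma), while *PFKM* (-0.33), *PKM* (-0.55), *ALDOA* (-0.41) and *GAPDH* (-0.45) were lower, and these 4 turned in the unscaled table (0.67, 0.39, 0.49 and 0.45, with a median of all probes of 0.83). *CKM*, at 1.17, did not pass (adjusted p = 0.0522), nor did the other probe of *PGAM2*, at 0.60. Over the 12 fits that each left out a Kid array, *PFKM* passed in 8, *PKM* and *ALDOA* in 7 each and *GAPDH* in 12. In Omen against SC, 45.7% of all probes and 7 of the 10 genes passed, 6 of them lower. *GAPDH* fell by 0.81 (adjusted p = 3.18e-07, limma), *PKM* fell by 0.88 (adjusted p = 8.21e-05), *ENO3* fell by 0.80 (adjusted p = 1.83e-05) and *ALDOA* fell by 0.77 (adjusted p = 0.000121). *PFKM* (-0.44) and *PGM1* (-0.26) were lower too, and *PGAM2* was higher by 0.44 (adjusted p = 0.0465, 11 Omen arrays with a value). That *PGAM2* call was kept in 3 of 12 fits that left out an Omen array, its other probe was at -0.08, and normexp background correction turned it to -0.39. In the unscaled table, with a median of all probes of 0.82, *PFKM*, *ALDOA*, *GAPDH* and *PGM1* turned (0.47, 0.03, 0.02 and 0.52). With scan day as a block 1 of the 10 genes, *GAPDH*, passed in Kid (-0.48, adjusted p = 0.0123, limma). The share of all probes that passed with this block is not given here, so the count sets no gene apart. The same block in Omen rests on the 1 SC array that shared a day with Omen arrays, so that its count of 0 says little about the Omen differences. Ordered by mean level, the tissues below IMF lay close together, and the last 2 did not differ by more than their SD for 6 of the 10 genes. Over the 60 fat arrays, with depot as a term, no gene of the 10 passed the limma F-test among breed groups, where 3.2% of all probes did, and 1, *ALDOA*, had an unadjusted p under 0.05.

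In Inter and Kid, the highest levels of *CKM* and *PGAM2* were found on few arrays, and these also held other muscle messages. An Inter array of a WagyuxAngus steer (slide 5, position 2) had a summed myofibre level of 10.01, where the median of Inter was 1.66. On it *CKM* was at 5.04, *PGAM2* at 4.31, *PYGM* at 1.90 and *ENO3* at 4.87, against Inter medians of -3.37, -3.75, -5.88 and -0.36. Another Inter array of a WagyuxAngus steer (slide 3, position 2) had a summed myofibre level of 6.59, with *CKM* at 1.94 and *PGAM2* at 0.78. In Kid, an array of a Hereford (slide 22, position 3) and one of an Angus (slide 19, position 2) had summed myofibre levels of 4.42 and 4.16, and *CKM* at 0.38 and -0.04, against a Kid median of -3.59. Without the array on slide 5, the Inter difference was smaller but passed with a lower p, at 1.49 for *PGAM2* (adjusted p = 0.0118, limma) and 1.44 for *CKM* (adjusted p = 0.0206), and *PFKM* and *ENO3* turned from 0.10 and 0.08 to -0.25 and -0.35, both still short of the test. Without the array on slide 3, *CKM* was at 1.72 and no longer passed (adjusted p = 0.0549, limma). Over the 12 fits that each left out an Inter array, *PGAM2* passed in 12 and *CKM* in 11. In Kid, *PGAM2* passed in 7 of 12 fits that each left out a Kid array, and was at 0.97 without the Hereford array on slide 22 and 0.98 without the Angus array on slide 19. In SC and Omen the summed myofibre level stayed at or below 2.11 on every array, with all 15 structural genes above background on at least 1 array.

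**Figure D3:**
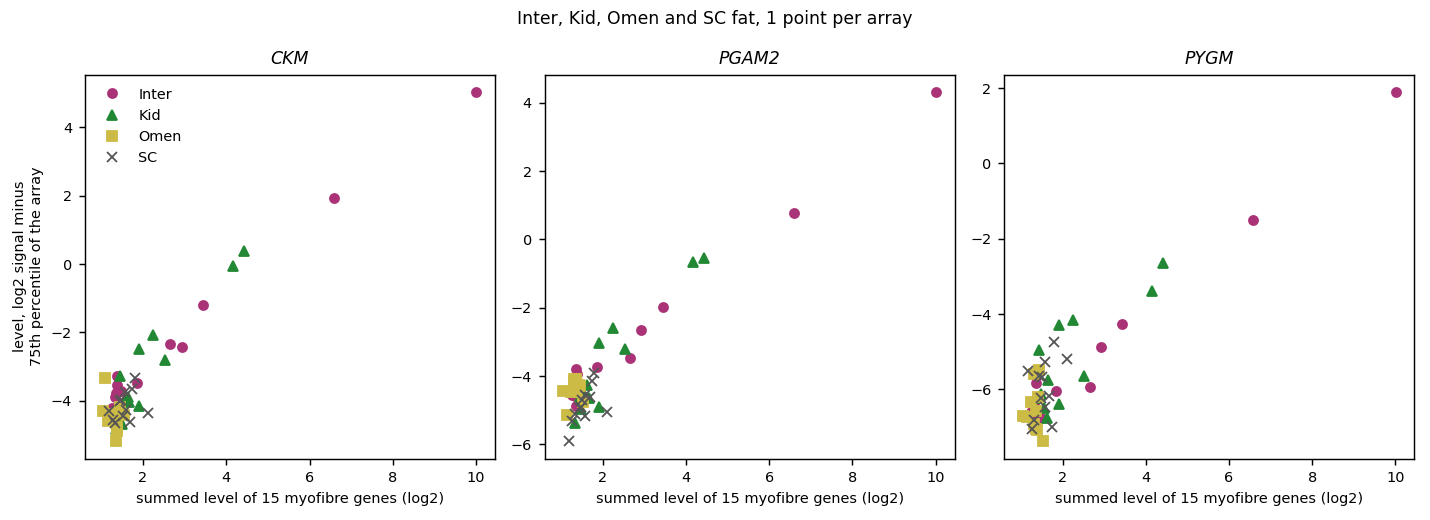
Level of *CKM*, *PGAM2* and *PYGM* (log2 scale, vertical) against the summed level of 15 myofibre genes (log2 scale, horizontal) in arrays of Inter, Kid, Omen and SC fat, 48 for *CKM* and 47 for *PGAM2* and *PYGM*. Most arrays sat at a summed level near 1 to 2, and the Inter array at 10.01 had the highest level of all 3 genes.

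Within LD the question was whether diet after weaning or breed moved these messages. All 10 genes had a higher mean in the supplement arrays than in the pasture arrays, by 0.09 to 0.29, a scale far below the differences between tissues. *LDHA* and *CKM* passed the test, 2 of 10 genes, where 11.2% of all probes passed. *LDHA* was at 7.51, 8.0 and 8.47 in the 24 pasture arrays. In the supplement arrays it was at 8.14, 8.22, 7.46 and 8.33 for Angus, 8.30, 8.29, 8.20 and 8.35 for Hereford and 8.66, 8.41, 8.70 and 8.56 for WagyuxAngus. The diets overlapped, with the lowest value of all 36 arrays in a supplement array, and the difference was 0.26 ± 0.0894 (adjusted p = 0.0498, limma).

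*CKM* was at 8.34, 8.66 and 9.06 in the pasture arrays. The supplement arrays gave 8.58, 8.63, 8.39 and 8.85 for Angus, 9.09, 8.93, 9.12 and 8.61 for Hereford and 9.20, 9.02, 9.13 and 9.16 for WagyuxAngus. These ranges overlapped too, with the supplement Angus arrays inside the pasture range, and the difference was 0.20 ± 0.0675 (adjusted p = 0.044, limma). The other 8 genes did not pass, with *PKM* at 0.29 (adjusted p = 0.137), *PYGM* at 0.22 (adjusted p = 0.24) and *ENO3* at 0.19 (adjusted p = 0.0909) among them. Of the 28 probes, 5 passed, all higher in the supplement arrays. Of the probes left out, 2 of 7 for *GAPDH* passed, both higher, and none of 2 for *LDHA*. Among the related lists, 5 of 25 other glycolysis genes passed, with *PFKL* (0.29), *PFKP* (0.43) and *PGK1* (0.42) higher and *PFKFB2* (-0.60) and *PFKFB4* (-0.60) lower. In the glycogen list the phosphatase subunit gene *PPP1R3C* was higher (1.16), and none of the 11 phosphagen genes passed.

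Neither diet call held when the slide or the scan day was taken into account. Each LD slide held a single diet, and the supplement arrays filled 3 slides, 1 for each breed group. With slide as a random block the adjusted p was 0.66 for *LDHA* and 0.64 for *CKM*. With scan day as a block the differences were 0.12 (adjusted p = 0.42) and 0.10 (adjusted p = 0.36). Within scan day 1 they were 0.15 for *LDHA* and 0.12 for *CKM*, and within scan day 2 they were 0.21 and 0.18, and none of these passed. Leaving out each of the 36 arrays in turn kept *LDHA* past the threshold in 11 cases and *CKM* in 16. The summed myofibre level had a median of 12.50 in pasture and 12.81 in supplement arrays. The 7 fast fibre genes had 10.81 and 11.06, the 6 slow fibre genes 10.75 and 10.95, and the adipocyte genes 7.58 and 7.51. The medians were 2.91 and 3.28 for the endothelial genes, 6.41 and 6.72 for the fibroblast and matrix genes and 2.96 and 2.60 for the B and T cell genes. Their part in the diet differences was not tested.

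Breed groups differed in LD for *PYGM* (adjusted p = 0.0103, limma F-test) and *CKM* (adjusted p = 0.0048), 2 of 10 genes where 25.3% of all probes passed. *PYGM* was at 5.74, 6.04 and 6.68 in Angus, 5.90, 6.59 and 6.80 in Hereford and 6.05, 6.82 and 7.10 in WagyuxAngus. WagyuxAngus exceeded Angus by 0.57 ± 0.136 (adjusted p = 0.0059, limma), although the ranges overlapped. *CKM* was at 8.34, 8.54 and 8.85 in Angus, 8.61, 8.86 and 9.12 in Hereford and 8.45, 8.96 and 9.20 in WagyuxAngus. It was higher than in Angus by 0.31 ± 0.0779 in Hereford (adjusted p = 0.0113) and by 0.33 ± 0.0779 in WagyuxAngus (adjusted p = 0.0055). *LDHA* was 0.32 ± 0.103 higher in WagyuxAngus than in Angus (adjusted p = 0.031). So 1 of 10 genes passed in Hereford against Angus (10.2% of all probes) and 3 of 10 in WagyuxAngus against Angus (19.2%). Of the 28 probes, 10 passed the F-test, 1 passed in Hereford against Angus and 14 in WagyuxAngus against Angus, all 14 higher in WagyuxAngus. Of the 7 *GAPDH* probes left out, all 7 passed the F-test and 4 passed in Hereford against Angus. All 7 passed in WagyuxAngus against Angus too (0.24 to 0.53), where the *GAPDH* probe used did not. Both *LDHA* probes left out passed the F-test and in WagyuxAngus against Angus (0.29 to 0.45). The brightest probe of *PKM* did not pass there (0.32), whereas its other 3 did, with differences of up to 1.01. None of the 10 genes passed in WagyuxAngus against Hereford (7.08%) or for the diet by breed interaction (16.2%), where 1 gene and 2 genes had an unadjusted p under 0.05 in limma and in the equal-variance test alike.

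The breed results also moved with the slide and the day. With slide as a random block the F-test gave an adjusted p of 0.19 for *PYGM* and 0.22 for *CKM*, and with scan day as a block 0.46 and 0.34. In the 24 pasture arrays alone no gene of the 10 passed the F-test, where 14.7% of all probes did (adjusted p = 0.26 for *PYGM* and 0.051 for *CKM*, limma). The size for *CKM* in Hereford against Angus was 0.31 there too, and that pair passed (adjusted p = 0.0423, limma). In the 12 supplement arrays alone 4 did, beside 23% of all probes, but there each breed group lay on a slide of its own, so breed and slide cannot be told apart. Within scan day 3, which held 1 slide each of Angus and WagyuxAngus, the sign turned to -0.27 for *PYGM*, -0.18 for *LDHA* and -0.04 for *CKM*, and *ENO3* passed in the opposite direction, lower in WagyuxAngus (-0.38, adjusted p = 0.03, limma). The summed myofibre level had medians of 12.48 in Angus, 12.72 in Hereford and 12.78 in WagyuxAngus LD, and that of the fast fibre genes 10.75, 10.98 and 11.12. The slow fibre genes had 10.66, 10.89 and 10.86, and the adipocyte genes 7.56, 7.48 and 7.65. In the same order the medians were 4.83, 4.34 and 4.56 for the red blood cell genes, 3.29, 2.96 and 2.78 for the B and T cell genes and 2.97, 3.22 and 2.83 for the endothelial genes. Their part in the breed differences was not tested.

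Scan days could be compared within a breed group and diet. *PYGM* ran from 6.48 to 7.10 over the 16 LD arrays of day 1, from 5.74 to 6.35 over the 12 of day 2 and from 6.05 to 6.68 over the 8 of day 3, with days 1 and 2 apart. In pasture WagyuxAngus, all 10 genes had a higher mean in the 4 arrays of day 1 than in the 4 of day 3, by 0.04 to 0.70 with a median of 0.52, and for 9 genes, all but *PFKM*, the ranges did not overlap, as was so for 25% of all probes. In pasture Hereford, day 1 exceeded day 2 for 9 of the 10 genes (-0.04 to 0.65, median 0.14), and the ranges were apart for 1, *PYGM*, and for 29.2% of all probes. In pasture Angus, day 3 exceeded day 2 for 8 of them (-0.11 to 0.59, median 0.15), and the ranges were apart for 3, *PYGM*, *ENO3* and *ALDOA*, the last lower on day 3, and for 35.5% of all probes. The summed myofibre level had medians of 12.80, 12.48 and 12.46 on days 1, 2 and 3, and the 75th percentile of log2 signal 8.56, 9.28 and 9.57. The adipocyte genes had 7.56, 7.38 and 7.71, and the fibroblast and matrix genes 6.72, 6.53 and 6.09. The B and T cell genes had 2.80, 3.33 and 2.63. Their part in the differences between days was not tested, nor could scan day be parted from the kill.

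**Figure D4:**
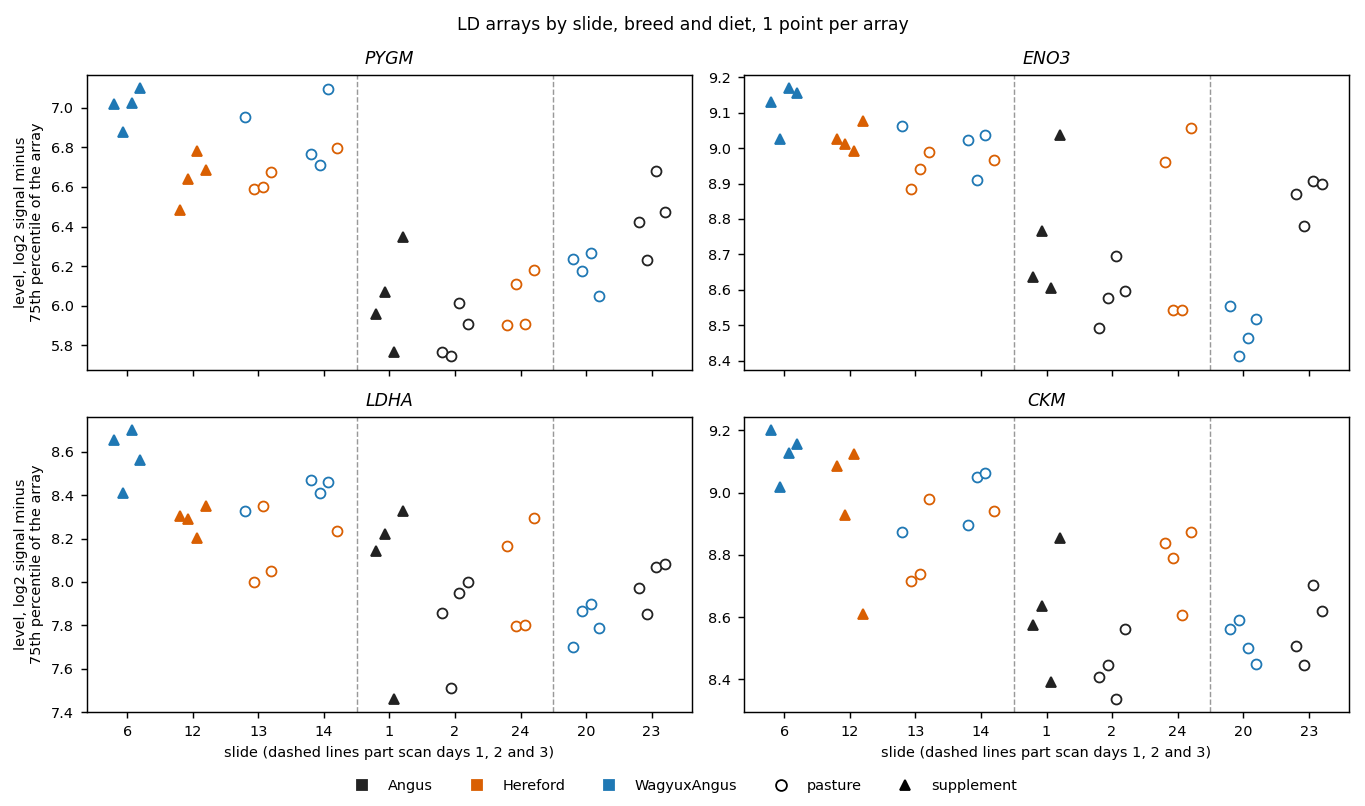
Level of *PYGM*, *ENO3*, *LDHA* and *CKM* (log2 scale) in the 36 LD arrays by slide, with slides ordered by scan day, colour for breed group, open circles for pasture and filled triangles for supplement. For *PYGM* the arrays of day 1 (6.48 to 7.10) lay above those of day 2 (5.74 to 6.35), and pasture Hereford was the only breed group and diet scanned on both days.

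Across the 36 LD arrays the 10 genes moved together, given here as a description since arrays share slides, days and scaling. Over the 45 pairs of genes, r had a median of 0.77, from 0.26 for *ALDOA* with *PFKM* to 0.97 for *GAPDH* with *ALDOA*. Against the mean of the other 9 genes, r was 0.92 for *ENO3* and *LDHA*, 0.91 for *PGM1*, 0.87 for *GAPDH*, 0.83 for *PYGM* and *CKM*, 0.82 for *PKM* and *PGAM2* and 0.80 for *ALDOA*. On the probe used, *PFKM* stood apart with 0.45, and no r is given for its other probes. That probe had the lowest of the 6 *PFKM* differences in WagyuxAngus against Angus (0.12, with others up to 0.71). Against the summed level of the 15 myofibre genes, r was 0.94 for *GAPDH*, 0.92 for *CKM*, 0.89 for *ALDOA*, 0.72 to 0.86 for another 6 genes and 0.26 for *PFKM*. The genes outside the 10 whose levels were most like their mean were *GAPDHS* (r 0.95), *TPI1* (0.93), *ACTN3* (0.92), *PGK1* (0.92) and *ACTA1* (0.92), out of 10518 genes whose r had a median of -0.07 and quartiles of -0.33 and 0.22. *TPI1* and *PGK1* are enzymes of the same route, and *ACTN3* and *ACTA1* encode proteins of the contractile apparatus. *GAPDHS* is a separate gene related to *GAPDH*, and whether its probe shares signal with *GAPDH* was not tested.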

How the data were processed

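Total RNA of 36 LD and 60 fat samples was labelled by the study from a low RNA input and hybridised to Agilent bovine arrays in a single colour, 4 arrays to a slide. The authors deposited Feature Extraction intensity files, in which the processed signal is background-corrected and not scaled between arrays, and a log2 table of 34227 probes. The deposited log2 values were found to equal the log2 of the median signal minus background, floored at 1, without scaling between arrays. The file headers name an earlier bovine assembly for the probe design, so no coordinates are given.

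Levels were computed as log2(processed signal) minus the 75th percentile over 43653 non-control probes of the array, without spots marked as outliers. All 34227 probes were tested with limma 3.58.1 in R 4.3.3 (lmFit, eBayes, Benjamini-Hochberg, threshold 0.05), with breed group as a term for diet and diet as a term for breed. Tissue pairs were fitted on their own arrays, with all 36 LD arrays entering. Correlations in IMF used 100000 permutations with scipy 1.17.1. RefSeq accessions or the study's tables named 21290 probes (62.2%). Scripts were tested on simulated data. Replicate arrays are separate samples, the array number limits the precision, and arrays of different depots share steers.

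The text names the 10 genes, their counterpart isoforms, up to 3 genes per related list with the largest LD minus SC difference, and the 5 genes most like the 10 in LD. Some genes of the lists are counted but not reported by name here. *TPI1*, *GPI*, *PGK1*, *HK1*, *HK3*, *GATM* and the list genes that passed in the diet comparison were named after their values were seen. The 10 genes and all lists were chosen with earlier results of these data known. Summed marker levels are the log2 of summed linear signals over the measured genes of a list. Markers of endothelium, macrophages, smooth muscle, fibroblasts, red blood cells and lymphocytes were also listed.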

Additional observations from a re-analysis of the deposited data

Results flagged for a closer look

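Over 210 combinations of a gene and a group of 4 or 8 arrays, the highest or lowest array lay far from the rest of its group in 17, by the ratio of its gap to the whole range, and chance alone gives about 5% of such checks. The slide and position of each array are given.

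In IMF of Angus steers, the array at slide 8, position 1 was the lowest for 4 genes. *PKM* was at 4.02 against 5.53 to 5.72 (ratio 0.889), *PGAM2* at 5.78 against 7.41 to 7.57 (ratio 0.906), *LDHA* at 5.45 against 6.92 to 7.06 (ratio 0.912) and *PGM1* at 5.68 against 7.10 to 7.37 (ratio 0.840).

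In Inter, *PFKM* was highest in Angus at slide 3, position 1 (-0.995 against -1.23 to -1.19, ratio 0.832). *PGM1* was highest in WagyuxAngus at slide 5, position 2 (4.45 against 3.69 to 3.77, ratio 0.897), which is the array with the highest summed myofibre level outside LD and IMF. In Kid, the Angus array at slide 19, position 2 was the highest for *PGAM2* (-0.67 against -4.95 to -4.25, ratio 0.836) and for *CKM* (-0.04 against -4.68 to -3.89, ratio 0.82903).

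In LD, *LDHA* was lowest in pasture Angus at slide 2, position 2 (7.51 against 7.85 to 8.08, ratio 0.598). *PGM1* was lowest in pasture Hereford at slide 24, position 3 (7.84 against 8.07 to 8.27, ratio 0.534), and *GAPDH* was highest in supplement WagyuxAngus at slide 6, position 4 (9.28 against 9.14 to 9.16, ratio 0.855).

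In Omen, *GAPDH* was lowest in Angus at slide 10, position 4 (5.35 against 5.93 to 6.05, ratio 0.830), on the array with 5528 outlier spots. *PGAM2* was lowest in Hereford at slide 11, position 2 (-4.76 against -4.16 to -4.08, ratio 0.879) and highest in WagyuxAngus at slide 11, position 4 (-4.30 against -4.46 to -4.43, ratio 0.848). In SC, *PGAM2* was highest in Hereford at slide 15, position 3 (-4.14 against -5.04 to -4.90, ratio 0.837), *LDHA* was lowest in Hereford at slide 17, position 2 (1.65 against 2.35 to 2.40, ratio 0.931) and *PFKM* was lowest in WagyuxAngus at slide 15, position 2 (-0.83 against -0.59 to -0.56, ratio 0.874).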

How the results depend on the processing

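Counts here are of the 10 genes past an adjusted p of 0.05. They stand without the share of all probes that passed under each alternative, so a count by itself sets no gene apart. LD exceeded SC, Inter, Kid and Omen for 10 of 10, and IMF exceeded SC for 10 of 10, under every alternative run, each IMF array left out in turn included (10 to 10). LD exceeded IMF for 10, or for 8 with quantile normalization or the unscaled table. The relation of IMF levels to the myofibre genes held for 10, or for 9 with quantile normalization. No gene passed for breed over the fat depots in any alternative.

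For diet in LD the 2 calls became 0 with quantile normalization, normexp, the unscaled table, all non-control probes, the equal-variance test of the study's methods, slide as a random block, scan day as a block, the replicate block, no breed term, within Angus, Hereford or WagyuxAngus and within scan day 1 or 2. They became 1 with the probe of the largest impact factor or the mean over probes, and 0 to 4 with an array left out (4 without the supplement Angus array at slide 1, position 3). For breed in LD (2) the count was 1 with quantile normalization, 4 with normexp, 8 with the unscaled table, 4 with that table scaled, 0 with slide or scan day as a block, 0 in pasture alone, 4 in supplement alone and 2 to 3 with an array left out.

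Hereford against Angus (1) gave 0 with quantile normalization, the probe of the largest impact factor, slide, scan day or within scan day 2, 2 with normexp or supplement alone, 9 with the unscaled table and 1 to 1 with an array left out. WagyuxAngus against Angus (3) gave 5 with the unscaled table, the probe of the largest impact factor or the mean over probes, 0 with slide, scan day or pasture alone, 6 in supplement alone, 1 within scan day 3 and 2 to 5 with an array left out (5 without the arrays at positions 1, 2 or 4 of slide 20). WagyuxAngus against Hereford (0) gave 0 to 1 with an array left out, and the interaction (0) gave 1 with the probe of the largest impact factor and 0 with an array left out.

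Inter against SC (6) gave 10 with the unscaled table, 2 with the mean over probes, 3 with slide and 5 to 6 with an array left out. A scan day block could not be fitted there, since the depots shared no day. Kid against SC (5) gave 3 with mean centring, 2 with normexp or a fit over all arrays, 9 with the unscaled table, 1 with that table scaled, slide or scan day, and 2 to 6 with a Kid array left out (2 without the Hereford array at slide 4, position 2, and 3 without either the WagyuxAngus array at position 2 or the Hereford arrays at positions 3 and 4 of slide 22). Omen against SC (7) gave 0 with scan day, where 1 SC array shared a day with Omen, 3 with a fit over all arrays and 6 to 8 with an array left out.

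Signs turned mostly in the unscaled table: diet *LDHA* -0.0253 and *CKM* -0.0878, Hereford against Angus *CKM* -0.26, WagyuxAngus against Angus *LDHA* -0.20 and *CKM* -0.13, LD against IMF *ALDOA* -0.0903, Inter *PKM* 0.45, *ALDOA* 0.49 and *GAPDH* 0.45, Kid *PFKM* 0.67, *PKM* 0.39, *ALDOA* 0.49 and *GAPDH* 0.45, and Omen *PFKM* 0.47, *ALDOA* 0.0319, *GAPDH* 0.0234 and *PGM1* 0.52. Elsewhere they turned for WagyuxAngus against Angus within scan day 3 (*PYGM* -0.27, *LDHA* -0.18, *CKM* -0.0438), *CKB* in LD against SC (4.34 with the probe of the largest impact factor, 0.0716 with the mean over probes), LD against IMF with quantile normalization (*ALDOA* -0.0417, *GAPDH* -0.0358), *PKM* in Inter with the probe of the largest impact factor (0.54) and *PGAM2* in Omen with normexp (-0.39). The unscaled table moved the median of all probes by -1.08 to 0.98. The cause of the other changes was not tested.

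The replicate number is the position on the slide. Same-numbered arrays had correlated deviations of 0.052, 0.131, 0.132 and 0.143 for LD diet and of 0.021, 0.055, -0.031 and 0.095 for IMF against SC, so the numbers were not taken to pair animals. With the replicate block the diet count was 0, with an adjusted p of 0.056 for both *LDHA* and *CKM*, the WagyuxAngus against Angus count was 4, and the other counts did not change. Alternatives within one scan day and without single depot arrays were chosen after seeing the data.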

Other observations

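The other markers listed set the depots apart in further ways. The summed level of 6 smooth muscle genes had a median of 7.91 in IMF (6.49 to 9.84), against 5.44 in LD and 4.72 to 5.57 in the other depots. Fibroblast and matrix genes (6 measured) had medians of 8.97 in SC, 8.23 in IMF, 6.52 in LD and 7.09 to 8.54 in the other depots. Macrophage genes (5 measured) were lowest in LD (median 1.34) and IMF (2.36), and between 4.26 and 4.64 in the other depots. Endothelial genes (5 measured) had a median of 2.98 in LD, 4.12 in IMF and 4.39 to 4.61 elsewhere. Slow fibre genes (6 measured) had a median of 10.79 in LD, 9.71 in IMF and 1.43 to 1.77 in the other depots. Red blood cell genes (3 measured, median 3.84 to 4.52) and B and T cell genes (4 measured, median 2.91 to 3.49) varied least among the tissues. These differences were not tested.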
